A study of Mus musculus with 6 samples.

Results

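The transcripts of 9 enzymes, that of itaconate synthesis and 8 enzymes of the tricarboxylic acid (TCA) cycle and its cytosolic branches, were followed in murine bone marrow–derived macrophages (BMDMs). The members were listed by gene name: Irg1, Cs, Aco1, Idh1, Idh2, Idh3a, Fh1, Mdh1, and Mdh2. They are 9 of the 34787 gene names on the array and are read by 10 of its 55681 probes, as Fh1 has a pair of probes and each of the other 8 genes has 1.

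BMDMs from wild-type female mice (strain C57/B6 in the labels, C57BL6/J in the methods), matured for 7 days in medium conditioned by L929 cells, fell into 3 groups: untreated cells, cells given LPS (lipopolysaccharide, the bacterial ligand of the receptor TLR4) for 4 h, and cells given HBX41,108 at 10 μM for 30 min and then the same LPS (LPS+USP7i). HBX41,108 is a small molecule that inhibits the catalytic activity of the deubiquitinase USP7. The study's design text gives the LPS dose as 100 ng/ml, while the labels' treatment protocol writes it per microliter. The labels give an age of 6 to 8 weeks and the methods an older range. Each group comprised 2 arrays from independent experiments, and neither source says whether the LPS cells received the solvent of HBX41,108, so an effect of solvent cannot be told apart from that of the inhibitor.

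Irg1 (also Acod1) encodes the mitochondrial enzyme that decarboxylates cis-aconitate, an intermediate of the aconitase reaction, to itaconate. It is known as a gene that macrophages switch on when they meet bacterial products, and itaconate inhibits succinate dehydrogenase. The TCA cycle itself condenses acetyl-CoA with oxaloacetate to citrate and returns, through isocitrate, 2-oxoglutarate, succinate, fumarate, and malate, to oxaloacetate, and several of its steps have a cytosolic counterpart encoded by a separate gene.

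The sequences just before the start sites of Irg1, the member with the largest difference, and Idh2, the only member with a match to the NF-κB consensus, are shown because the study concerns LPS-induced NF-κB target genes. Both are the 250 bases upstream of the start site in RefSeq (GRCm38.p6), 5′ to 3′ on the strand of the gene. Capitals mark TATAAA and the 9-letter NF-κB form GGAAATTCC in Irg1, and the consensus match in Idh2, which reads GGGAGCCTCC on the opposite strand.
Irg1, chr14:103046762-103047011, plus strand: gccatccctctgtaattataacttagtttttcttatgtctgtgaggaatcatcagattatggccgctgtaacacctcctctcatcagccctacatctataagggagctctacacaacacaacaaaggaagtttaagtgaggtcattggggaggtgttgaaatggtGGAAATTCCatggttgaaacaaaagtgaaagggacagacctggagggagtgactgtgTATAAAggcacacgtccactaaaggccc
Idh2, chr7:80115351-80115600, minus strand: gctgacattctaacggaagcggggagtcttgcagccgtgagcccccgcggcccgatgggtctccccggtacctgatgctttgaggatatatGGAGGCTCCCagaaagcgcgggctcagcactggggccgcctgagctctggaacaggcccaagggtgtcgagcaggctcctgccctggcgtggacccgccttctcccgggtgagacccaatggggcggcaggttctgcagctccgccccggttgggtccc

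RefSeq promoter windows of 300 bases were found for 8 of the 9 genes, with 9 windows in all because Idh1 has a second start site. On either strand, the interferon response core GAAANNGAAA was in 0 of the 9 windows, while 3.44% of all 32851 windows hold it. The NF-κB consensus, searched by its usual degenerate form of 10 letters, matched only in Idh2, 159 to 150 bases before the start, and 8.46% of all windows hold it. In the Irg1 window TATAAA lay 28 to 23 bases and GGAAATTCC 85 to 77 bases before the start, and neither was in another member's window. TATAAA is in 13.6% of all windows and GGAAATTCC in 0.317%. These last pair of motifs were chosen after the Irg1 sequence had been read, and a match describes letters in a window, not a bound site. The Irg1 window had a GC content of 47%, against 54.3% to 68.3% in the windows of the other members and a median of 52.7% over all windows.

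All 6 arrays lay on 1 slide read in 1 scan, with 59305 non-control spots each, of which 25002 to 27467 were well above background and 0 were saturated. Each group had its own row of the slide, so slide row and treatment cannot be told apart, and replicate 1 and replicate 2 lay in different columns. All 8 macrophage markers listed (such as Csf1r, Cd68, and Lyz2) were well above background on all 6 arrays, whereas 0 of 4 fibroblast and 0 of 3 erythroid markers were. Of the neutrophil, T cell, and B cell markers, 4 of 6, 1 of 3, and 2 of 4 were. The summed processed level of the macrophage markers after normalization was 721300 to 729300 in untreated cells, 723700 to 748600 with LPS, and 587300 to 628300 with LPS+USP7i. The markers did not move together between the last 2 groups. Cd14 (-1.31, limma adjusted p = 0.0184), itself raised by LPS (1.69), and Fcgr1 (-1.60, limma adjusted p = 0.0317) were called lower. Csf1r (-0.22), Adgre1 (-0.57), and Mertk (-1.20) lay lower and Cd68 (0.16), Lyz2 (0.15), and Itgam (0.31) higher, none of them called. The sum is thus no measure of macrophage content, and its part in the results below was not tested. As these are bulk samples, fewer cells expressing a gene and less of its RNA per cell cannot be told apart.

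All 10 member probes were well above background on all 6 arrays, so no member was lost to low signal. Values below are levels on the log2 scale of the quantile-normalized processed signal unless called differences. With 2 arrays per group, an exact permutation test cannot go below a two-sided p of 0.333, and the p values given are from limma, with Benjamini-Hochberg adjustment across all 55680 probes tested. They measure the spread between these samples.

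**Figure D1:**
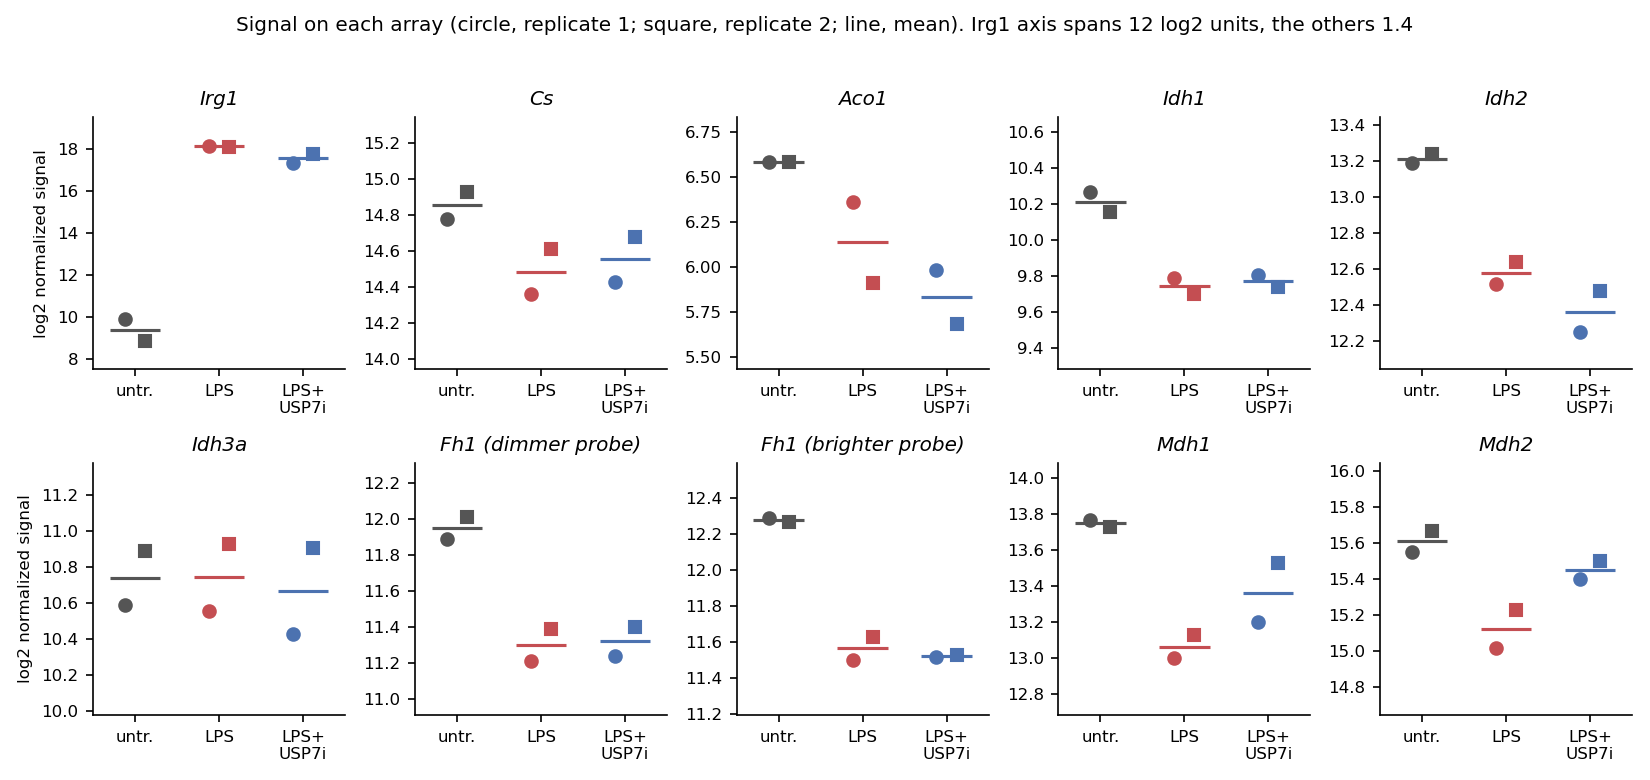
Log2 normalized signal of each member probe on each of the 6 arrays, by group, with the mean as a line. Irg1 was 9.90 and 8.88 in untreated cells and above 17 on all 4 LPS-treated arrays. Every other member probe except that of Idh3a was lower on all LPS-treated arrays than on either untreated array, also where the gene was not called. The share of all probes with such a separation was not determined.

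LPS raised Irg1, and 4 of the 8 enzymes of the TCA cycle and its cytosolic branches (cycle enzymes below) were called lower. This comparison asks what LPS alone does to the pathway in these macrophages. Irg1 rose 432-fold, and Idh1, Idh2, Fh1, and Mdh1 fell by between 1.38-fold and 1.64-fold at an adjusted p under 0.05. Of these, Idh1 and Mdh1 encode cytosolic enzymes. Cs, Aco1, Idh3a, and Mdh2 did not pass the test, and another scaling, given below, turned the sign of Cs and Mdh2. As background, 7.09% of all probes were called higher and 10.7% lower, or 14.6% and 22.4% of the 20720 probes well above background on all arrays. The median difference of the 8 members other than Irg1 was -0.48, against -0.15 over those 20720 probes.

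Irg1 is read by a probe spotted 10 times (mm9, chr14:103455171-103455231). Its level was 9.90 and 8.88 on the untreated arrays, 18.18 and 18.12 on the LPS arrays, and 17.37 and 17.78 on the LPS+USP7i arrays. The untreated arrays differed from each other by more than the LPS arrays did, and all 4 LPS-treated arrays lay above both untreated arrays. In group means, Irg1 was 9.39 ± 0.72 (SD, n = 2 arrays) in untreated cells and 18.15 ± 0.04 with LPS. The difference was 8.76 (SE 0.39, 95% interval 7.68 to 9.84), with a limma adjusted p of 0.0031.

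The probe moved from rank 9086 and 11584 among all probes in the untreated samples to rank 13 on both LPS arrays. With LPS+USP7i it ranked 119 and 44. Before normalization, the untreated arrays gave a processed signal of 1047 and 727, the LPS arrays 302313 and 319035, and the LPS+USP7i arrays 138639 and 232449. The 10 spots on an array agreed closely, with an SD of 0.028 to 0.16 on the log2 scale, and 0 of them were saturated.

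Cs encodes citrate synthase, which forms citrate from oxaloacetate and acetyl-CoA (probe at mm9, chr10:127799428-127799487). It stood at 14.78 and 14.93 on the untreated arrays, 14.36 and 14.61 on the LPS arrays, and 14.43 and 14.68 on the LPS+USP7i arrays. The untreated arrays lay above the LPS arrays, but the difference of -0.37 (SE 0.14, 95% interval -0.77 to 0.03) had an adjusted p of 0.201.

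Aco1 encodes the cytosolic aconitase, which interconverts citrate and isocitrate and, without its iron-sulfur cluster, binds iron-responsive RNA elements (mm9, chr4:40145780-40145839). Its level was 6.58 on both untreated arrays, 6.36 and 5.91 on the LPS arrays, and 5.98 and 5.68 on the LPS+USP7i arrays. The LPS arrays differed from each other by more than the untreated arrays did, and the difference of -0.44 (SE 0.19) had an adjusted p of 0.255.

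Of the isocitrate dehydrogenase genes, Idh1 and Idh2 passed the test with LPS and Idh3a did not, and whether their responses differ was not tested. Idh1 encodes the cytosolic NADP-dependent enzyme (mm9, chr1:65206035-65206094). It was 10.27 and 10.16 on the untreated arrays, 9.79 and 9.70 on the LPS arrays, and 9.81 and 9.74 on the LPS+USP7i arrays. Both LPS arrays lay below both untreated arrays (difference -0.47, SE 0.08, adjusted p = 0.0271, 1.38-fold).

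Idh2, the mitochondrial NADP-dependent enzyme whose promoter is printed above (probe at mm9, chr7:87239736-87239795), was 13.19 and 13.24 on the untreated arrays, 12.52 and 12.64 on the LPS arrays, and 12.25 and 12.48 on the LPS+USP7i arrays. It also fell with LPS without overlap, by 1.56-fold (difference -0.64, SE 0.11, adjusted p = 0.0289).

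Idh3a, the catalytic subunit of the NAD-dependent mitochondrial enzyme (mm9, chr9:54451368-54451427), was 10.59 and 10.89 on the untreated arrays, 10.56 and 10.93 on the LPS arrays, and 10.43 and 10.91 on the LPS+USP7i arrays. The arrays of the 3 groups overlapped throughout, and in each group replicate 1 lay below replicate 2. The difference with LPS was 0.01 with a 95% interval of -0.67 to 0.68, which spans changes of up to 1.6-fold either way. The genes of the regulatory subunits of the same enzyme, which are not among the 9, both fell with LPS. Idh3b went from 12.64 and 12.82 to 12.25 and 12.35 (difference -0.43, adjusted p = 0.0497), and Idh3g from 14.16 and 14.23 to 13.50 and 13.55 (difference -0.67, adjusted p = 0.00795). With 75th percentile scaling neither passed the test (Idh3b -0.03, adjusted p = 0.873, and Idh3g -0.12, adjusted p = 0.398). Over 14 other settings, Idh3b was called in 5 and Idh3g in 12.

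Fh1 encodes fumarase, which hydrates fumarate to malate. Its brighter probe (mm9, chr1:177531530-177531589) was 12.29 and 12.27 on the untreated arrays, 11.50 and 11.63 on the LPS arrays, and 11.52 and 11.53 on the LPS+USP7i arrays. Its dimmer probe, whose recorded position (chr1:177531659-177534089) spans more than the probe's own length, was 11.89 and 12.01, 11.21 and 11.39, and 11.24 and 11.40 in the same order. On both probes all LPS-treated arrays lay below both untreated arrays. The LPS difference was -0.72 (SE 0.07, adjusted p = 0.00853, 1.64-fold) on the brighter probe and -0.64 (SE 0.11, adjusted p = 0.0294) on the dimmer probe.

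The malate dehydrogenases interconvert malate and oxaloacetate, Mdh1 in the cytosol and Mdh2 in mitochondria. Mdh1 (mm9, chr11:21457280-21457339) was 13.77 and 13.73 on the untreated arrays, 13.00 and 13.13 on the LPS arrays, and 13.20 and 13.53 on the LPS+USP7i arrays. Mdh2 (mm9, chr5:136266157-136266216) was 15.55 and 15.67, 15.02 and 15.23, and 15.40 and 15.50. Both genes were lowest on the LPS arrays, without overlap with either other group.

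Mdh1 fell with LPS by 1.60-fold (difference -0.68, SE 0.13, adjusted p = 0.0425). Mdh2 differed by -0.49 (SE 0.11) and narrowly missed the threshold with an adjusted p of 0.0547. A fit with the replicate number as a block turned these calls around, with an adjusted p of 0.0514 for Mdh1 and 0.0329 for Mdh2. The exon or untranslated region that each probe reads was not determined here.

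The size of the fall in the cycle enzymes depended on the scaling. Scaling each array to its 75th percentile in place of quantile normalization left only Idh1 (-0.42) and the brighter Fh1 probe (-0.40) called lower, reduced Idh2 to -0.19 and Mdh1 to -0.17, and turned Cs to 0.23 and Mdh2 to 0.11, none of these 4 passing the test. That scaling moved the median LPS difference of all probes to 0.51 and called 21768 probes higher and 5669 lower, against 3948 and 5947 with quantile normalization. Without untreated replicate 1 or without untreated replicate 2, 0 members were called lower. Without either LPS array, 1 was, and with the deposited log2 values 1 was. In each of these fits Irg1 was called higher.

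**Figure D2:**
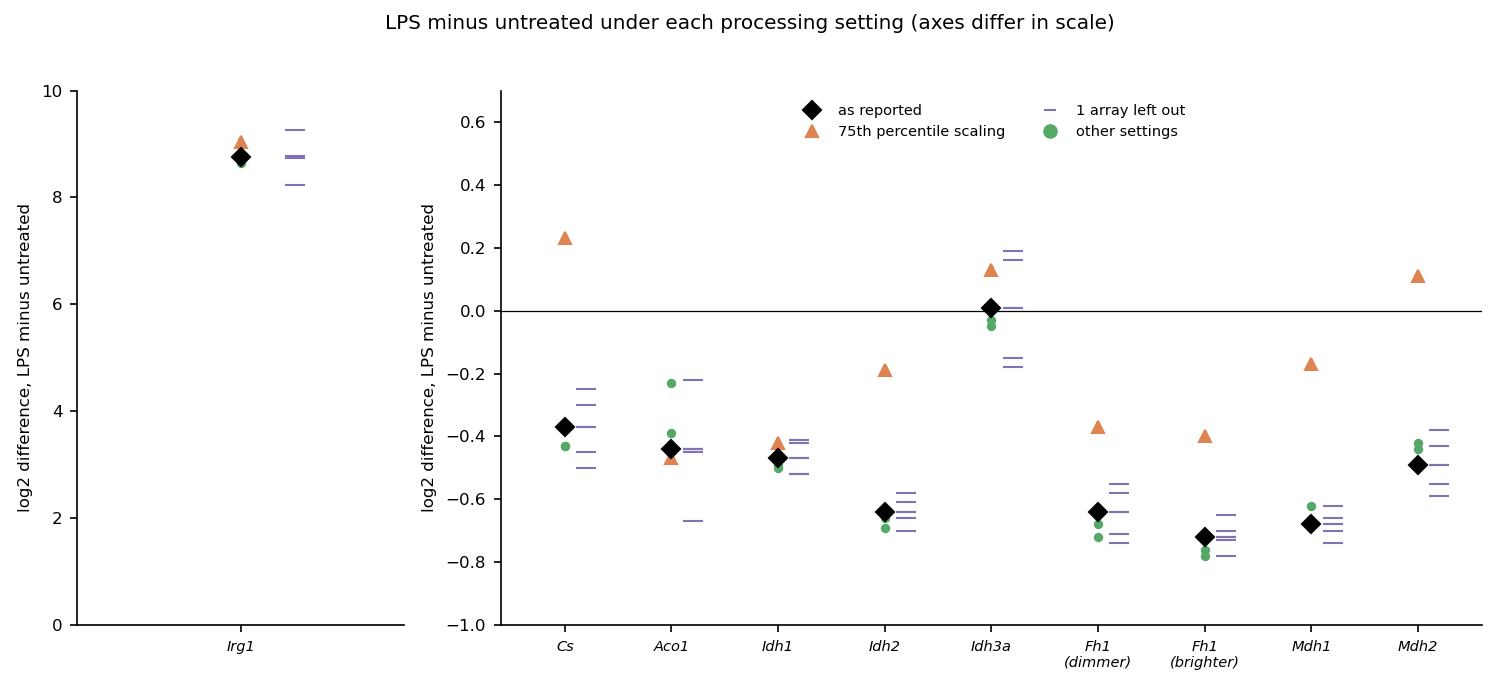
Log2 difference of each member probe between LPS and untreated cells under each processing setting, with Irg1 on its own axis. The Irg1 values lie between 8.24 and 9.27, and the 75th percentile scaling puts Cs and Mdh2 above 0 and the other cycle enzymes called lower nearer to it.

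In cells given HBX41,108 before LPS, none of the 9 members passed the test against LPS alone. No group received HBX41,108 without LPS, so a changed LPS response cannot be told apart here from an effect of the compound that needs no LPS. With limma 0 members were called higher and 0 lower, and 1 member, Mdh2, had an unadjusted p under 0.05. As background, 4.66% of all probes were called higher and 3.79% lower, or 9.29% and 7.61% of the probes well above background on all arrays. The median difference of the 8 members other than Irg1 was -0.0041, against 0.048 over those probes.

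Irg1 was 17.58 ± 0.29 (SD, n = 2 arrays) with LPS+USP7i, and both of its arrays lay below both LPS arrays. The difference of -0.57 (SE 0.39) corresponds to a 1.48-fold lower level, with an adjusted p of 0.548. Its 95% interval, -1.65 to 0.51, runs from 3.14-fold lower to 1.43-fold higher than with LPS alone. Under the 14 other settings the difference ranged from -0.77 to -0.36 and passed the test in 0 of them.

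Mdh2 and Mdh1 were the members with the highest values relative to LPS. Mdh2 differed by 0.33 (95% interval 0.03 to 0.62, unadjusted p = 0.0369, adjusted p = 0.179), and Mdh1 by 0.29 (95% interval -0.08 to 0.67, adjusted p = 0.331). For both genes the 2 LPS+USP7i arrays lay between the LPS arrays and the untreated arrays. Idh2 lay lower than with LPS on both arrays, by -0.21 (95% interval -0.51 to 0.09, adjusted p = 0.394).

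For the remaining members the LPS+USP7i and LPS arrays overlapped. The differences were 0.08 for Cs, -0.31 for Aco1, 0.03 for Idh1, -0.07 for Idh3a, and -0.04 and 0.02 for the brighter and dimmer Fh1 probes, with adjusted p values of 0.514 to 0.983. The 95% interval of Idh1 was -0.18 to 0.24 and that of the brighter Fh1 probe -0.23 to 0.16. That of Aco1 was -0.85 to 0.23, which leaves room for a 1.8-fold lower level.

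Against untreated cells, LPS+USP7i cells had 1 member called higher, Irg1, and 3 called lower, Idh1, Idh2, and Fh1. This comparison shares its LPS+USP7i arrays with the comparison against LPS and its untreated arrays with the LPS comparison, so it is no independent check of either. The background shares were 5.65% called higher and 7.34% lower among all probes, and 11.6% and 15.5% among those well above background on all arrays. The median difference of the 8 members other than Irg1 was -0.41, against -0.07 over the latter probes.

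Irg1 was 291-fold higher than in untreated cells (difference 8.19, SE 0.39, adjusted p = 0.00536). Idh2 was 1.80-fold lower (difference -0.85, adjusted p = 0.0195), the brighter Fh1 probe differed by -0.75 (adjusted p = 0.0112), and Idh1 by -0.44 (adjusted p = 0.0392). Aco1 also differed by -0.75, but with an adjusted p of 0.0974. Mdh1 (-0.39, adjusted p = 0.183), Cs (-0.30, adjusted p = 0.34), Mdh2 (-0.16, adjusted p = 0.524), and Idh3a (-0.07, adjusted p = 0.97) did not pass. Without untreated replicate 1 or without untreated replicate 2, 0 of the 3 lower calls passed, and 1 did without either LPS array, while the 75th percentile scaling turned Cs to 0.10 and Mdh2 to 0.23.

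**Figure D3:**
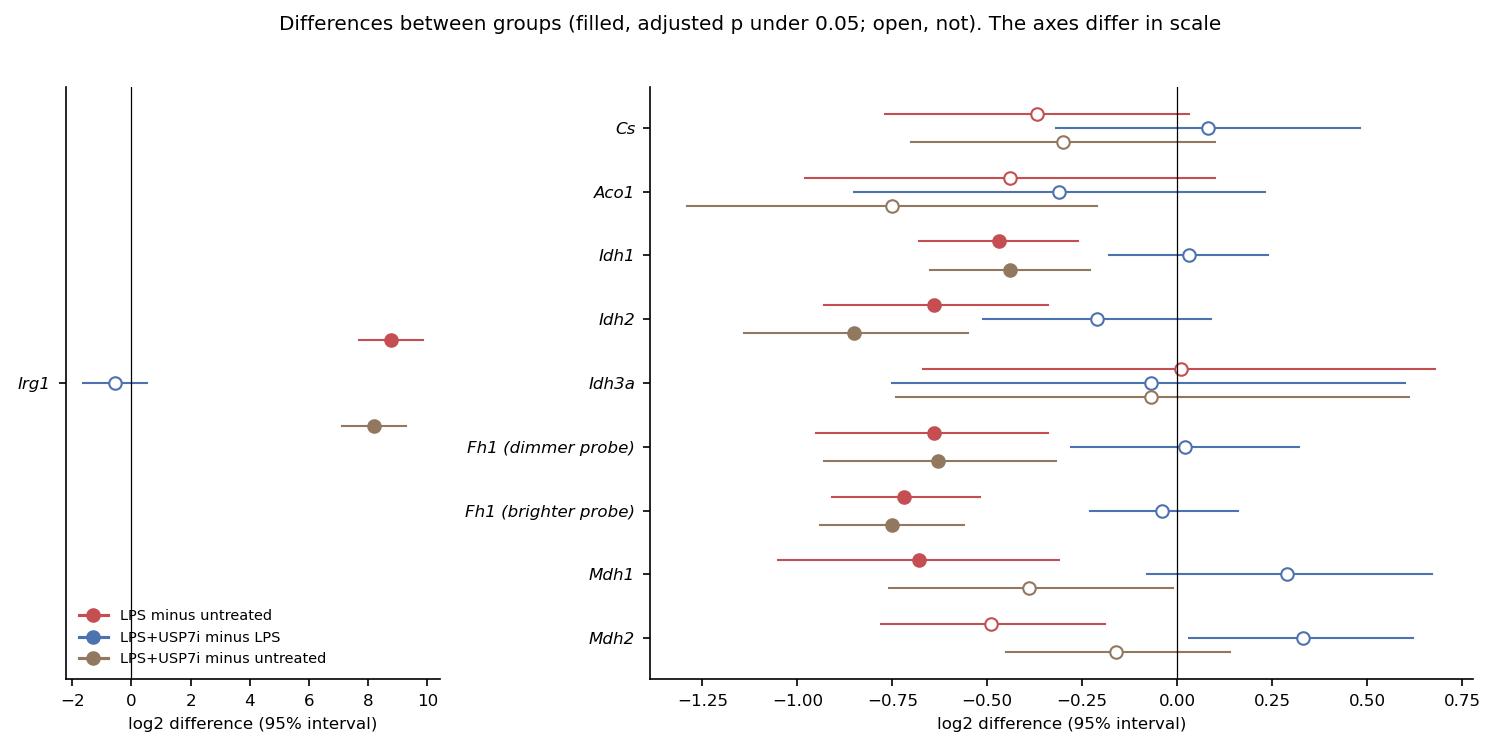
Log2 differences of the member probes in the 3 comparisons with their 95% intervals from the fit over all probes. All intervals for LPS+USP7i minus LPS include 0 except that of Mdh2 (0.03 to 0.62), and the differences from untreated cells of Cs and Mdh2 change sign under 75th percentile scaling.

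The rest of the pathway was read from 3 lists with 42 genes, of which 41 were well above background on all arrays. Pdk4 was so on no array. With LPS, 4 of the 42 were called higher, 15 lower, and 23 neither. Against LPS alone, LPS+USP7i gave 3 higher and 3 lower, and against untreated cells 2 higher and 8 lower. The background among probes well above background on all arrays was 14.6% higher and 22.4% lower with LPS, 9.29% and 7.61% between LPS+USP7i and LPS, and 11.6% and 15.5% between LPS+USP7i and untreated cells, so the 3 calls each way between LPS+USP7i and LPS are no more than that share. Genes named below are among those with the largest differences in each list, comparison, and direction.

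Of the 13 other TCA cycle genes, 5 fell with LPS and 0 rose. Among them were Sdhb and Sdhd, which encode subunits of succinate dehydrogenase, the enzyme that itaconate inhibits. Sdhb, its iron-sulfur subunit, was 15.27 and 15.29 on the untreated arrays, 14.44 and 14.49 on the LPS arrays, and 14.75 and 14.73 on the LPS+USP7i arrays. It fell by 1.76-fold with LPS (difference -0.82, adjusted p = 0.00493). The exception among 14 other settings was 75th percentile scaling, which gave -0.21 (adjusted p = 0.176) for Sdhb and also ended the calls of Idh3g (-0.12), Sdhd (-0.05), and Idh3b (-0.03).

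Sdhd, a membrane anchor, fell too (difference -0.61, adjusted p = 0.038), and Suclg1 of succinyl-CoA ligase was the remaining gene called beside Idh3b and Idh3g. In the other settings Sdhd and Idh3b were each called in 5 of 14 and Idh3g in 12 of 14. The flavoprotein subunit Sdha (-0.45, adjusted p = 0.0953) and the other anchor Sdhc (-0.52, adjusted p = 0.15) did not pass. Sdhc was called in 2 of 14 other settings, with the replicate number as a block (adjusted p = 0.0393) and with normexp (adjusted p = 0.0224). Sdha was called in 3 of 14, with 2 groups in the fit and without LPS+USP7i replicate 1 or 2 (adjusted p = 0.0353 each), and under 75th percentile scaling it stood at 0.03. Against LPS alone, 0 of the 13 passed in either direction. There Sdhb differed by 0.28 (adjusted p = 0.0709), Sdhd by 0.30, Idh3b by 0.22, Sdhc by 0.10, Sdha by 0.07, and Idh3g by 0. Suclg2, a subunit of succinyl-CoA ligase named after its value was seen, had the largest difference of the list, in the other direction. It was 8.27 and 8.39 on the LPS arrays and 6.96 and 7.57 on the LPS+USP7i arrays, a difference of -1.07 (unadjusted p = 0.00995, adjusted p = 0.08), which passed in 4 of 14 other settings. Against untreated cells, Idh3g (-0.66, adjusted p = 0.0115) and Sdhb (-0.54, adjusted p = 0.0138) were lower in LPS+USP7i cells. The call of Sdhb held in 10 of 14 other settings, and was lost with 75th percentile scaling (-0.12, adjusted p = 0.42), with the deposited values (adjusted p = 0.102), and without either untreated array. With 75th percentile scaling Idh3g stood at -0.35 (adjusted p = 0.0473), and its call was lost without either untreated array.

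Of 13 genes of pyruvate entry, 1 rose and 4 fell with LPS. Pdk3, a kinase that inactivates pyruvate dehydrogenase, was 8.52 and 8.68 on the untreated arrays, 10.07 and 9.85 on the LPS arrays, and 8.17 and 8.49 on the LPS+USP7i arrays. It was raised by LPS (difference 1.36, adjusted p = 0.0118) and was lower in LPS+USP7i cells than with LPS alone (difference -1.63, adjusted p = 0.0191). Both LPS+USP7i arrays lay below both untreated arrays, but the difference of -0.27 from untreated cells did not pass (adjusted p = 0.436).

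Pdp1, a phosphatase that reactivates the same complex, went the other way. Its level was 10.37 and 10.45, 8.90 and 8.70, and 9.71 and 9.93 in the same order of groups, a difference of -1.61 with LPS (adjusted p = 0.00558) and of 1.02 between LPS+USP7i and LPS (adjusted p = 0.0263). Pdhb, a subunit of pyruvate dehydrogenase itself, was 13.11 and 13.12, 12.57 and 12.67, and 13.31 and 13.40. It was 1.67-fold higher with LPS+USP7i than with LPS (difference 0.74, adjusted p = 0.0192). The kinase Pdk2 (-1.35, adjusted p = 0.0186) and the phosphatase Pdp2 (-0.76, adjusted p = 0.00888) also fell with LPS, and Pdk2 was lower in LPS+USP7i cells than in untreated cells (-1.42, adjusted p = 0.0216). Over the 14 other settings, the LPS call of Pdk2 held in 10, that of Pdk3 in 11, and that of Pdp2 in 13, and the call of Pdk2 between LPS+USP7i and untreated cells held in 8, being lost with 2 groups in the fit, without any 1 of the 4 untreated and LPS arrays, and without LPS+USP7i replicate 2.

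Of the 16 genes of exchange with the cycle, 3 rose and 6 fell with LPS. Slc25a22, a mitochondrial glutamate carrier, was 8.25 and 8.17 on the untreated arrays, 11.12 and 10.49 on the LPS arrays, and 9.52 and 9.40 on the LPS+USP7i arrays. It rose 6.05-fold with LPS (difference 2.60, adjusted p = 0.00723), was lower with LPS+USP7i than with LPS (difference -1.35, adjusted p = 0.0499), and with LPS+USP7i was above untreated cells (difference 1.25, adjusted p = 0.045). The last call held in 10 of 14 other settings and was lost without any 1 of the untreated or LPS+USP7i arrays, with adjusted p of up to 0.182. Slc25a10, the dicarboxylate carrier, rose by 0.75 (adjusted p = 0.0273) and was lower by 1.07 with the inhibitor (difference -1.07, adjusted p = 0.0249).

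Me1, the cytosolic malic enzyme that converts malate to pyruvate, was 9.45 and 8.91 on the untreated arrays, 9.56 and 9.06 on the LPS arrays, and 11.23 and 11.35 on the LPS+USP7i arrays. It was 3.94-fold higher with LPS+USP7i than with LPS (difference 1.98, adjusted p = 0.0318) and 4.32-fold higher than in untreated cells (adjusted p = 0.0194, called in 10 of 14 other settings), whereas LPS alone gave 0.14 (adjusted p = 0.867). Among the genes called lower with LPS were D2hgdh (-1.41, adjusted p = 0.0236), which oxidizes D-2-hydroxyglutarate, and Slc25a11 (-0.93, adjusted p = 0.00932), the oxoglutarate carrier. With 75th percentile scaling Slc25a11 stood at -0.36 and did not pass (adjusted p = 0.13), and it and D2hgdh were each called in 11 of 14 other settings. In LPS+USP7i cells D2hgdh (-1.49, adjusted p = 0.0265) and Slc25a13 (-1.46, adjusted p = 0.0323), an aspartate-glutamate carrier, were lower than in untreated cells. These calls held in 11 of 14 other settings for D2hgdh and in 7 of 14 for Slc25a13.

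The calls between LPS+USP7i and LPS depended on which arrays entered the fit and on the scaling and normalization. With only those 2 groups in the fit, or without untreated replicate 1 or 2, 0 of the 42 genes and 0 probes in all passed, and without LPS replicate 1 0 of the 42 were called. The 2-group fit had 6051 probes higher and 5206 lower at an unadjusted p under 0.05. With the replicate number as a block, Pdk3 (adjusted p = 0.0442), Pdhb (0.0397), and Me1 (0.0465) stayed called, and Pdp1 (0.0564), Slc25a10 (0.0518), and Slc25a22 (0.0571) did not. The LPS call of Slc25a10 was also lost (0.0517), and held in 5 of 14 other settings. Pdhb did not pass with 75th percentile scaling (0.57, adjusted p = 0.0751) or with the deposited values (adjusted p = 0.0585), where Slc25a10 did not pass either (-0.95, adjusted p = 0.05), nor did its rise with LPS (0.65, adjusted p = 0.102). Over the 14 other settings, Pdk3 was called in 9, Me1 in 7, Pdp1, Pdhb, and Slc25a22 in 6 each, and Slc25a10 in 5. The directions of Pdk3, Pdp1, Pdhb, Me1, Slc25a10, and Slc25a22 held in 14 of 14 settings.

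**Figure D4:**
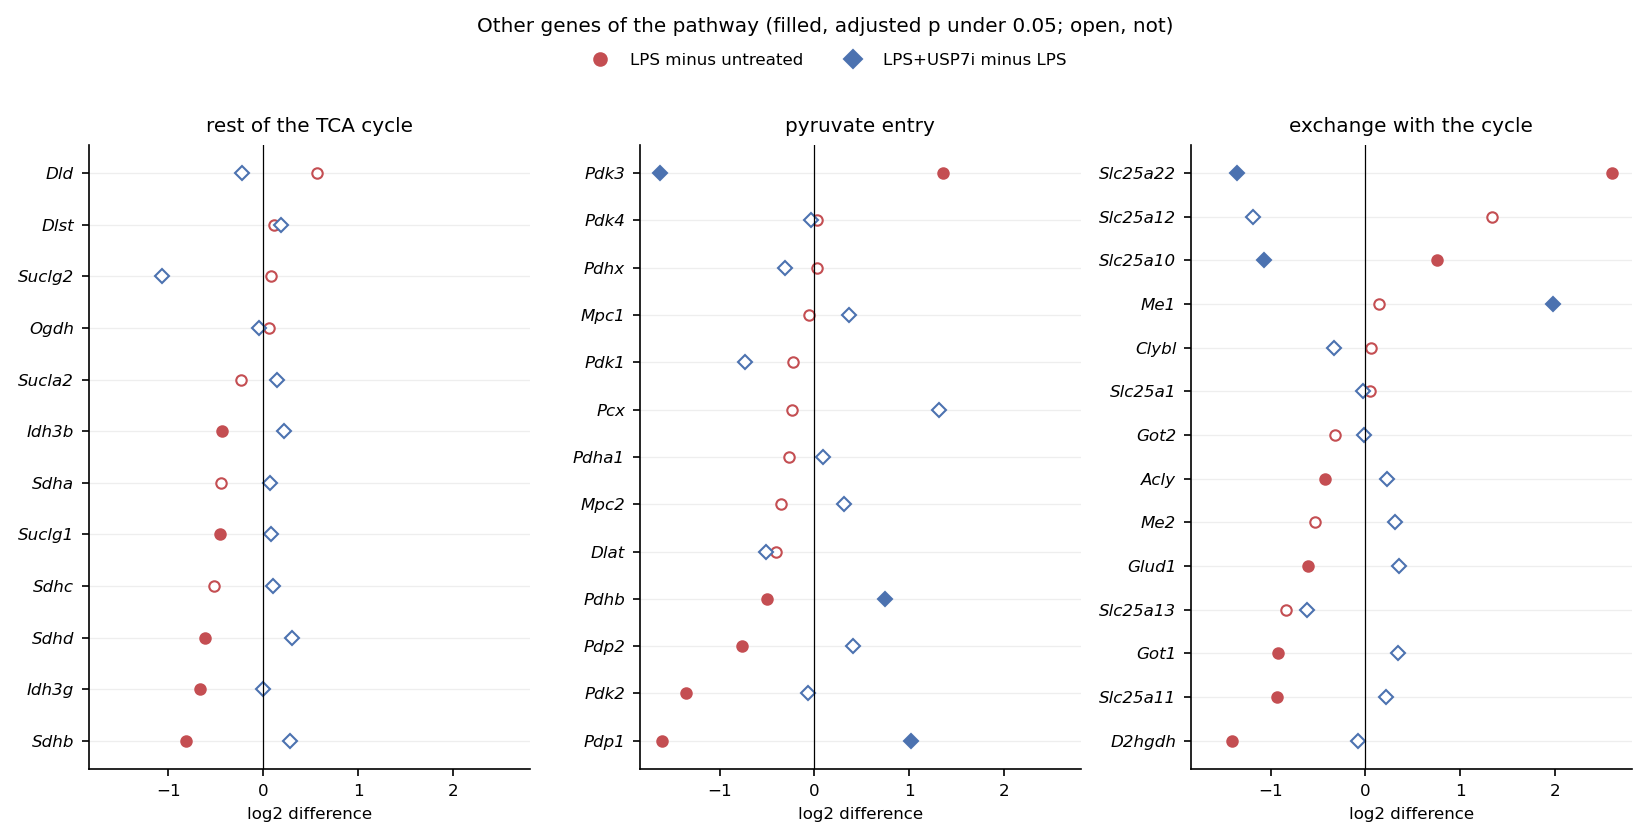
Log2 differences of other genes of the pathway in 3 lists, for LPS minus untreated (circles) and LPS+USP7i minus LPS (diamonds), filled where the adjusted p was under 0.05. The LPS arrays enter both differences with opposite sign, so the comparisons are not independent, and under 75th percentile scaling Sdha lies above 0 with LPS.

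The genes with a profile most like that of Irg1 over the 6 arrays were Cxcl10, Gbp5, Ifnb1, Ptgs2, and Tnf, out of 11776 genes compared. Likeness is the root mean square difference of log2 profiles, each centered on its mean, and was 0.20 for Cxcl10, 0.55 for Gbp5 and Ifnb1, 0.58 for Ptgs2, and 0.64 for Tnf, against a median of 4.11. Only 12 genes lay within 1 log2 unit. Profiles were centered but not scaled, so a gene that changed little lies far from Irg1 by the size of the Irg1 rise alone. The median therefore says little about likeness, and the ranking favors genes with a rise of similar size. A gene could be compared without being well above background on every untreated array, as was the case for Ptgs2 and Ifnb1. Cxcl10, a chemokine gene, was 9.78 and 8.93 on the untreated arrays, 18.33 and 18.19 on the LPS arrays, and 17.81 and 18.19 on the LPS+USP7i arrays, which overlapped the LPS arrays (difference -0.26, adjusted p = 0.746).

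Tnf, which encodes the cytokine tumor necrosis factor, was 9.43 and 9.14, 16.89 and 16.90, and 16.14 and 16.10 in the same order. Between LPS+USP7i and LPS, where 7.61% of probes well above background on all arrays were called lower, Tnf was called lower by 1.71-fold (difference -0.78, adjusted p = 0.0382). Its LPS+USP7i arrays lay closer together than those of Irg1. The call held in 5 of 14 other settings, with an adjusted p of up to 0.138 where an array was left out, and Gbp5 and Ptgs2 were each called in 3 of 14. Gbp5 differed by -1.83 (adjusted p = 0.0833), Ptgs2 by -1.33 (adjusted p = 0.108), and Ifnb1 by 0.26 (adjusted p = 0.766). Ptgs2 and Ifnb1 were well above background on 1 of 2 untreated arrays.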

How the data were processed

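The authors measured gene expression in 6 samples of BMDMs (3 groups of 2) on 1-color Agilent mouse arrays labeled with Cy3. They deposited the scanner output of Agilent Feature Extraction 10.7.3.1, which holds background-corrected spot intensities, and a matrix of log2 values, which the methods say were quantile-normalized with limma; its direction and scale followed the scanner values (r = 0.986 to 0.988 over probes), and its background correction and any filter are not given in the sources used here.

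Here, the processed signal of non-control spots was quantile-normalized on the log2 scale, outlier-flagged spots were left out, and the spots of each probe were averaged. Quantile normalization gives all arrays the same distribution, so a shift shared by most transcripts is removed. A linear model with 3 groups was fitted to all 6 arrays with limma 3.58.1 (R 4.3.3) and p values were adjusted over 55680 probes, with a threshold of 0.05. Where a gene had several probes, the brightest stood for it, and all probes of members are given. The fit was tested on simulated data, but no outcome of that test is reported or relied on here. The number of arrays limits the precision of every value. Old names were updated through RefSeq by accession for 26762 probes, by symbol for 3819, and by synonym for 639, and 24461 probes kept the name in the file. Probe positions are in mm9 as the files give them, and promoter windows are in GRCm38.p6.

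The members and gene lists were chosen with earlier results of these data known. Named genes were the members, 7 further genes of the TCA cycle, up to 3 genes with the largest difference past the threshold per list, comparison, and direction, and the 5 genes most like Irg1 over the 6 arrays; a few genes that this rule selects are counted in their lists but not reported singly here. Alternatives were another scaling, background correction with normexp (offset 50), the deposited log2 values, removal of dim probes, flagged spots kept, a trended prior, 2 groups in the fit, the replicate number as a block, the mean of a gene's probes, a log2 difference of at least 1, and each array left out in turn.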

Additional observations from a re-analysis of the deposited data

How the results depend on the processing

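Irg1 passed the test with LPS (8.24 to 9.27) and with LPS+USP7i against untreated cells (7.68 to 8.70) in 14 of 14 alternatives each. The number of cycle enzymes called lower was less stable. With LPS it went from 4 to 5 with normexp, with dim probes left out, with a trended prior, or with the mean of a gene's probes, 3 with 2 groups in the fit, 2 with 75th percentile scaling, 1 with the deposited values, and 0 with a log2 difference of at least 1 required, and ranged from 0 to 3 with 1 array left out. Against untreated cells, the number lower in LPS+USP7i cells went from 3 to 4 with normexp or with dim probes left out, 2 with the deposited values, 1 with 2 groups in the fit, and 0 with the size requirement, and ranged from 0 to 2 with 1 array left out. Among the 42 other genes with LPS, the number higher went from 4 to 8 with 75th percentile scaling and 2 with the size requirement (0 to 4 with 1 array left out), and the number lower from 15 to 6 with 75th percentile scaling, 9 with the deposited values, and 4 with the size requirement (5 to 13 with 1 array left out). Between LPS+USP7i and LPS, the number higher went from 3 to 5 with normexp or the mean of a gene's probes and 0 with 2 groups (0 to 1 with 1 array left out), and the number lower from 3 to 5 with normexp, with dim probes left out, or with the mean of a gene's probes, and 0 with 2 groups (0 to 3 with 1 array left out). For LPS+USP7i against untreated cells, the number higher went from 2 to 6 with 75th percentile scaling (0 to 2 with 1 array left out), and the number lower from 8 to 5 with 2 groups and 4 with the size requirement (0 to 6 with 1 array left out).

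Changes of sign concerned differences that did not pass the test. With 75th percentile scaling they were, for LPS, Cs (0.23), Mdh2 (0.11), and Sdha (0.03); for LPS+USP7i against LPS, Cs (-0.13), the dimmer Fh1 probe (-0.08), Idh3g (-0.23), Sdha (-0.13), and Sdhc (-0.10); and against untreated cells, Cs (0.10), Idh3a (0.01), and Mdh2 (0.23). Idh3a with LPS was -0.05 with normexp and -0.03 with the deposited values, the brighter Fh1 probe between LPS+USP7i and LPS 0.02 with both, and Idh3g there -0.09 and -0.08. With 1 array left out, the LPS difference of Idh3a ranged from -0.18 to 0.19 and its difference from untreated cells with LPS+USP7i from -0.31 to 0.18. Between LPS+USP7i and LPS, the ranges were -0.05 to 0.20 for Cs, -0.02 to 0.07 for Idh1, -0.32 to 0.17 for Idh3a, -0.10 to 0.03 and -0.07 to 0.11 for the brighter and dimmer Fh1 probes, -0.02 to 0.03 for Idh3g, -0.09 to 0.23 for Sdha, -0.08 to 0.28 for Sdhc, and -0.15 to 0.68 for Ifnb1.

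The replicate numbers are also the slide columns, and the labels do not say that a number marks a shared experiment. Deviations of same-numbered arrays from their group means correlated with r = 0.47, 0.40, and 0.42 over 20705 probes for the 3 pairs of groups. With the replicate block, 4 cycle enzymes were lower with LPS, Mdh2 (adjusted p = 0.0329) in place of Mdh1 (0.0514), and 3 were lower in LPS+USP7i cells than in untreated cells. The cause of these changes was not tested.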
